A study of Mus musculus with 9 samples.

Results

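The genes described here encode the subunits of the NMDA receptor. They are Grin1, Grin2a, Grin2b, Grin2c, Grin2d, Grin3a and Grin3b, taken by name as 7 of the 37620 genes counted. Their RNA was read in ribosome-associated RNA pulled down from parvalbumin-expressing inhibitory neurons (PV INs) of hippocampal CA3/CA2. The mice carried PV-Cre and a Cre-dependent HA tag on the ribosomal protein Rpl22, and Cre in PV cells switched the tag on. In the shRNA group a lentivirus with an shRNA against Ablim3 had been injected into the dentate gyrus (DG), and in the shNT group the same kind of virus carried a non-targeting shRNA, so both groups carried the tag and an injection. There were 5 shNT and 4 shRNA samples, each pooled from 6 mice aged 2 months and taken 2 weeks after injection. The virus was delivered to the DG and not to the PV INs, so the comparison asks how PV IN transcripts differ when Ablim3 is reduced in the granule cells.

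An NMDA receptor is a glutamate-gated channel that also needs a co-agonist, glycine or D-serine, and that passes calcium once depolarization has lifted its magnesium block. Every receptor holds GluN1, the product of Grin1, which binds the co-agonist. The GluN2 subunits bind glutamate and set the kinetics, GluN2A giving brief currents, GluN2B longer ones and GluN2D the slowest, with a weak magnesium block. GluN2D is known from interneurons, GluN2C from cerebellar granule cells and glia, and the GluN3 subunits reduce calcium entry.

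The subunit transcripts are related in sequence, which bears on whether a short read could be taken for the wrong subunit. In the reference transcripts on build NCBIM37 (mm9), the longest run of bases shared exactly by any 2 subunits was 34, between Grin2b and Grin2c, which is shorter than the 50-base reads.

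The genes differ widely in size. Grin2b (chr6:135679844-136123529) and Grin2a (chr16:9577803-9995014) span 444 kb and 417 kb, and Grin3a (chr4:49674483-49858616) spans 184 kb. Grin2d (chr7:53087253-53126298) spans 39.0 kb, Grin1 (chr2:25146701-25174707) 28.0 kb, Grin2c (chr11:115110483-115128557) 18.1 kb and Grin3b (chr10:79433460-79439935) 6.48 kb. Reads were counted without strand, and 13.5% of the Grin1 exon bases and 32.1% of those of Grin3b overlap an exon of a gene on the opposite strand (E130003G02Rik and ORF61). Reads in such overlaps cannot be assigned to a strand.

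Gene counts per sample ran from 18281719 to 34578837. Pvalb, the calcium buffer that defines these cells, was read at 678 to 1375 CPM in the shNT and 310.0 to 705 CPM in the shRNA samples (counts scaled to library size after TMM normalization), and 10 of 10 PV IN markers were detected. The markers of other cell types were all detected too. The samples hold no RNA without pulldown, so enrichment of PV IN RNA was not tested. The Pvalb means were 998 ± 287 and 526 ± 163 CPM, with a log2 fold change of -0.92 that was not called (edgeR quasi-likelihood FDR 0.0678). Ablim3 is targeted in the DG and not in the PV INs, and its level in the pulldown was 12.1 to 22.6 CPM in the shNT samples and 13.7 to 21.7 CPM in the shRNA samples. The sample of each group with the most reads outside exons was shNT 2, at 18.6%, and shRNA 4, at 27.2%. The other samples had 9.76% to 19.8%, the highest of them shRNA 1. The sample names carry 2 prefixes, YTa31 for shNT 1 to 3 and shRNA 1 to 3 and YTa32 for shNT 4, shNT 5 and shRNA 4, and the labels do not say what the prefixes mean. Results are therefore given also without shNT 2 and shRNA 4 or within a prefix where that changes them.

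Per kilobase of exon, Grin1 had the highest mean level in the shNT samples, followed by Grin2b and Grin2d. The mean levels were 22.3 ± 7.99 CPM per kb for Grin1, 14.6 ± 1.98 for Grin2b and 8.18 ± 3.23 for Grin2d (SD, n = 5). Grin2a followed at 3.05 ± 1.45, Grin2c at 1.73 ± 0.365, Grin3a at 0.801 ± 0.325 and Grin3b at 0.0132 ± 0.00831 CPM per kb. The ranges of neighbours in this order overlapped for the first 5 genes. Within samples, Grin2b exceeded Grin2d and Grin2d exceeded Grin2a in each of the 5. Grin1 exceeded Grin2b, and Grin2a exceeded Grin2c, in 4 of the 5. Grin2c lay above Grin3a, and Grin3a above Grin3b, with no overlap. The shRNA samples had the same order of means, with 25.7 ± 6.90 CPM per kb for Grin1, 17.7 ± 1.93 for Grin2b, 8.20 ± 3.97 for Grin2d, 7.47 ± 1.76 for Grin2a, 4.27 ± 3.35 for Grin2c, 1.42 ± 0.287 for Grin3a and 0.0386 ± 0.0202 for Grin3b (SD, n = 4). There Grin2b and Grin2d no longer overlapped, and Grin2d and Grin2a were close, with Grin2d the higher in 2 of the 4 samples. The length used matters for Grin1 and Grin3a, whose merged exons are much longer than their longest coding transcript. Per kilobase of that transcript, Grin1 stood at 50.6 ± 18.1 in the shNT samples and did not overlap Grin2b at 16.0 ± 2.16, and Grin2c and Grin3a overlapped.

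**Figure D1:**
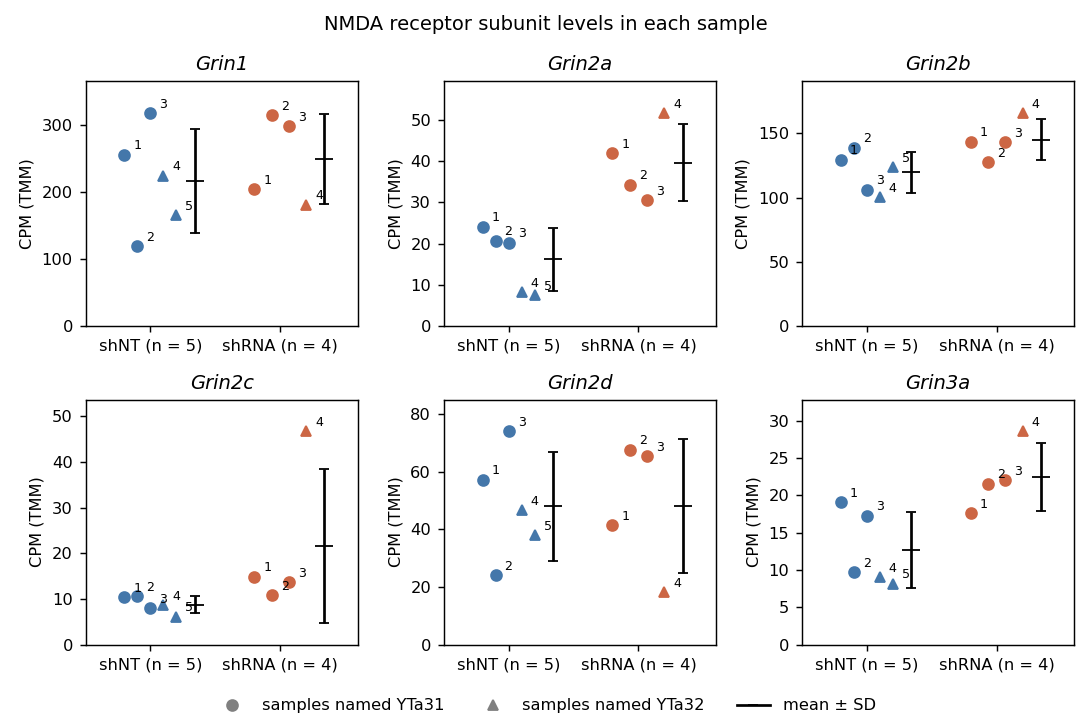
Level of 6 subunit genes in CPM, each with its own axis from 0, in the 5 shNT (blue) and 4 shRNA (orange) samples, with 1 numbered point per sample, circles for YTa31 and triangles for YTa32, and a black bar at the mean ± SD. The groups do not overlap for Grin2a and Grin2c, and shRNA 4 stands above the other shRNA samples for Grin2c, at 46.7 CPM.

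In the comparison of shRNA with shNT, Grin2a had 2 groups of samples that did not overlap and a mean level 2.45 times as high, but no subunit gene passed the test across all genes. A gene was called where edgeR's quasi-likelihood test gave an FDR under 0.05 with 1.5-fold or more between groups. It called 0 of the 6 subunit genes with enough reads, where 1.75% of all 15069 genes tested were called, 1.74% as higher and 0.0133% as lower. At an unadjusted p under 0.05, 3 of the 6 were higher, namely Grin2a, Grin2c and Grin3a, and 20.7% of all genes tested were higher at that level. The same 3 genes were called by edgeR's likelihood ratio test, edgeR's exact test, DESeq2 and limma voom. These tests called 11.2%, 11%, 10.1% and 15.3% of all genes as higher. The log2 fold change was above 0 in 6 of 6, against 57.9% of all genes tested, and its median was 0.55, against 0.11 over all genes. The groups did not overlap, with the shRNA samples higher, for 2 of the 6 (Grin2a and Grin2c), where 8.97% of all genes tested had such groups.

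Grin1, the subunit that every receptor needs, had overlapping levels in both groups. It was read at 255.5, 118.7, 318.0, 224.1 and 165.6 CPM in shNT 1 to 5 and at 204.1, 315.0, 298.4 and 180.9 CPM in shRNA 1 to 4. The groups overlapped across most of their range, with shNT 2 the lowest sample. The log2 fold change was 0.21 (SE 0.28, 95% interval -0.41 to 0.82, edgeR quasi-likelihood FDR 0.615). The difference was within the spread between samples, and the interval leaves room for a rise of more than 1.5-fold. With the percentage of reads outside exons as a term of the fit it was 0.65 (FDR 0.109), and with a correction for exon length it was -0.31 (FDR 0.480).

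Grin2a encodes GluN2A. Its level was 24.0, 20.7, 20.2, 8.17 and 7.53 CPM in shNT 1 to 5 and 41.9, 34.2, 30.5 and 51.6 CPM in shRNA 1 to 4. Each shRNA sample lay above each shNT sample, and the shNT samples formed a higher set of 3 and a lower set of 2 that followed the prefix of their names. Within YTa31 the mean was 21.6 CPM in 3 shNT and 35.6 CPM in 3 shRNA samples, a ratio of 1.64, and the groups did not overlap. Within YTa32 it was 7.85 CPM in 2 shNT samples and 51.6 CPM in shRNA 4, a ratio of 6.58. The 2 sets differed in the effect by 2.00 on the log2 scale (SE 0.27). Since shRNA 4 is the one shRNA sample in its set, the prefix cannot be told apart from that sample in the shRNA group. The shNT group also differed by prefix, with means of 21.6 CPM in YTa31 and 7.85 CPM in YTa32. Fitted in YTa31 alone, the log2 fold change fell from 1.29 (SE 0.34, 95% interval 0.54 to 2.04, FDR 0.0621) to 0.68 (FDR 0.243). The unadjusted p of edgeR's quasi-likelihood test was 0.00286 over all samples and 0.00254 in YTa31 alone, where 0 of 14475 genes were called. The log2 fold change was 0.83 (FDR 0.0805) with the correction for gene length and 1.00 (FDR 0.0895) with that for exon length. With the percentage of reads outside exons as a term it was 0.99 (FDR 0.119).

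Some lists of markers of cells other than PV INs moved with Grin2a, and others followed it less or not at all. The markers of CA3 and CA2 pyramidal neurons, whose summed level was 499 CPM in shNT 4, 779 CPM in shNT 5 and 936 to 1142 CPM in shNT 1 to 3, reached 1046 to 1329 CPM in the shRNA samples. Of these 10 markers, 8 had a positive fold change (57.9% of all genes tested) and 1, Grik4, was called as higher (1.74% of all genes tested), with a median log2 fold change of 0.71, or 0.72 without shRNA 4. Slc17a7, the vesicular glutamate transporter of excitatory neurons, was read at 323, 286, 336, 140 and 205 CPM in shNT 1 to 5 and at 431, 408, 516 and 378 CPM in shRNA 1 to 4. It was lowest in shNT 4 and shNT 5, the samples in which Grin2a was lowest, and its groups did not overlap. The 8 markers of DG granule cells summed to 231, 181, 195, 140 and 197 CPM in shNT 1 to 5 and 243 to 301 CPM in the shRNA samples. The sum in shNT 5 was thus not below those of shNT 2 and shNT 3. Of these markers 7 were positive and 1 (Dock10) was called as higher, against 57.9% and 1.74% of all genes tested. Of the 6 markers of oligodendrocyte precursors, 3 (Pdgfra, Olig2 and Gpr17) were called as higher, against 1.74% of all genes tested. Of the same 6, 5 were positive, against 57.9% of all genes tested, and the median log2 fold change was 0.99. Their summed level was 63.5 CPM in shNT 4, 73.0 CPM in shNT 5, 74.9 to 92.5 CPM in shNT 1 to 3 and 100.9 to 127.5 CPM in the shRNA samples. The 8 oligodendrocyte markers were all positive (57.9% of all genes tested) with 0 called as higher (1.74%), and their median was 0.78. Their summed level was 775 CPM in shNT 4, 895 CPM in shNT 5 and 1055 to 2406 CPM in shNT 1 to 3. In the shRNA samples it was 1470 to 3058.5 CPM. The groups overlapped, with shNT 2 above shRNA 1 and shRNA 2. The endothelial sum was 85.4 to 278 CPM in the shNT samples, 52.7 to 121.6 CPM in shRNA 1 to 3 and 681 CPM in shRNA 4. Its markers had a median of -0.89 without shRNA 4. Microglia sums overlapped between groups, at 68.6 to 117 and 104.5 to 119 CPM. Of the markers of other interneurons, 5 of 9 were positive (57.9% of all genes tested). Grin2a is itself expressed in excitatory neurons of the hippocampus, and the part of any of these cell types in the Grin2a values was not tested. In a bulk pulldown, fewer cells of a type and less RNA per cell cannot be told apart.

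Grin2b encodes GluN2B, and its level was the most even of the subunits across samples. It was read at 129.3, 138.8, 106.1, 100.02 and 123.7 CPM in shNT 1 to 5 and at 143.3, 127.4, 143.3 and 165.8 CPM in shRNA 1 to 4. The groups overlapped, with shRNA 2 below shNT 1 and shNT 2. The means were 119.6 ± 16.1 and 145.0 ± 15.8 CPM, and the log2 fold change was 0.28 (SE 0.14, 95% interval -0.04 to 0.59, edgeR quasi-likelihood FDR 0.192). Correction for gene length turned the sign, to -0.26 (FDR 0.279), and correction for exon length gave -0.21 (FDR 0.358), with the median of all genes moved from 0.11 to -0.07 and -0.09.

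Grin2c encodes GluN2C, and the size of its difference depended on 1 sample. The level was 10.4, 10.6, 7.96, 8.57 and 6.12 CPM in shNT 1 to 5 and 14.9, 10.8, 13.6 and 46.7 CPM in shRNA 1 to 4. The groups did not overlap, but shRNA 2 was barely above shNT 2 and shRNA 4 was more than 3 times any other sample. The log2 fold change was 1.30 (SE 0.39, 95% interval 0.44 to 2.16, edgeR quasi-likelihood FDR 0.0671). It was 0.57 without shRNA 4 (FDR 0.149), when shRNA 1 to 3 still lay above each shNT sample. Without both shNT 2 and shRNA 4 it was 0.68 (FDR 0.0709). In YTa31 alone it was 0.41 (FDR 0.480), and 0.44 (FDR 0.283) with the percentage of reads outside exons as a term. Astrocyte markers moved with it: their summed level was 1083 to 1533 CPM in the shNT samples, 1420 to 1679 CPM in shRNA 1 to 3 and 5572 CPM in shRNA 4. All 10 had a positive fold change (57.9% of all genes tested), and 0 were called (1.75%). At an FDR under 0.1 with at least 1.5-fold, 8 were higher (12.7% of all genes tested). Their median log2 fold change was 1.38, or 0.34 without shRNA 4. Other lists were also at their highest in shRNA 4. The endothelial sum was 681 CPM there, 52.7 to 121.6 CPM in shRNA 1 to 3 and 85.4 to 278 CPM in the shNT samples. The nuclear-retained RNAs summed to 19008 CPM there, 3643 to 13653 CPM in shRNA 1 to 3 and 1671 to 15043 CPM in the shNT samples. The part of astrocyte RNA, or of the RNA of these other lists, in the Grin2c level was not tested.

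Grin2d encodes GluN2D, the subunit known from interneurons, and its group means were almost the same. The level was 57.2, 24.0, 73.9, 46.6 and 38.0 CPM in shNT 1 to 5 and 41.3, 67.5, 65.4 and 18.1 CPM in shRNA 1 to 4. Its lowest values were those of shNT 2 and shRNA 4, and the spread within each group was wider than any difference between them. The means were 47.9 ± 18.9 and 48.1 ± 23.3 CPM, and the log2 fold change was 0.00 (SE 0.38, 95% interval -0.83 to 0.84, edgeR quasi-likelihood FDR 0.996). The interval leaves room for a change of either sign that is larger than 1.5-fold. Grin2d was 0.67 higher on the log2 scale with that percentage of reads as a term (FDR 0.0977). The summed PV IN markers had their lowest values in the same samples, 4892 CPM in shNT 2 and 2906 CPM in shRNA 4, where the other shNT samples held 7018 to 8056 CPM and shRNA 1 to 3 held 4982 to 7059 CPM. In shNT 2 this did not hold for Pvalb, at 1106 CPM, or Tac1, at 118 CPM, which were lower in other shNT samples. Each other marker of the list was lowest in shNT 2 among the shNT samples. Of these 10 markers 0 had a positive fold change, against 57.9% of all genes tested. The test called 0 of them, against 1.75% of all genes, and their median was -0.35, or -0.14 without shRNA 4.

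Grin3a encodes GluN3A. The level was 19.1, 9.68, 17.3, 9.03 and 8.12 CPM in shNT 1 to 5 and 17.6, 21.6, 22.0 and 28.5 CPM in shRNA 1 to 4. The groups overlapped through shRNA 1, which lay below shNT 1, and shRNA 4 was the highest sample. The means were 12.6 ± 5.12 and 22.4 ± 4.53 CPM, and the log2 fold change was 0.83 (SE 0.27, 95% interval 0.22 to 1.43, edgeR quasi-likelihood FDR 0.0771). Within YTa31 the ratio of means was 1.33 and within YTa32 3.33, and the difference between the sets was 1.33 on the log2 scale (FDR 0.0528). Correction for exon length brought the log2 fold change to 0.13 and correction for gene length to 0.40. Without shNT 2 and shRNA 4 it was 0.62 (FDR 0.177).

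Grin3b encodes GluN3B, which is known mainly from motor neurons. It held 1, 0, 2, 1 and 2 reads in shNT 1 to 5 and 6, 3, 3 and 1 reads in shRNA 1 to 4. These counts are at or below a floor of 3 counts per library in all samples but shRNA 1, so no fold is given, and the gene did not reach the level required for the test.

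**Figure D2:**
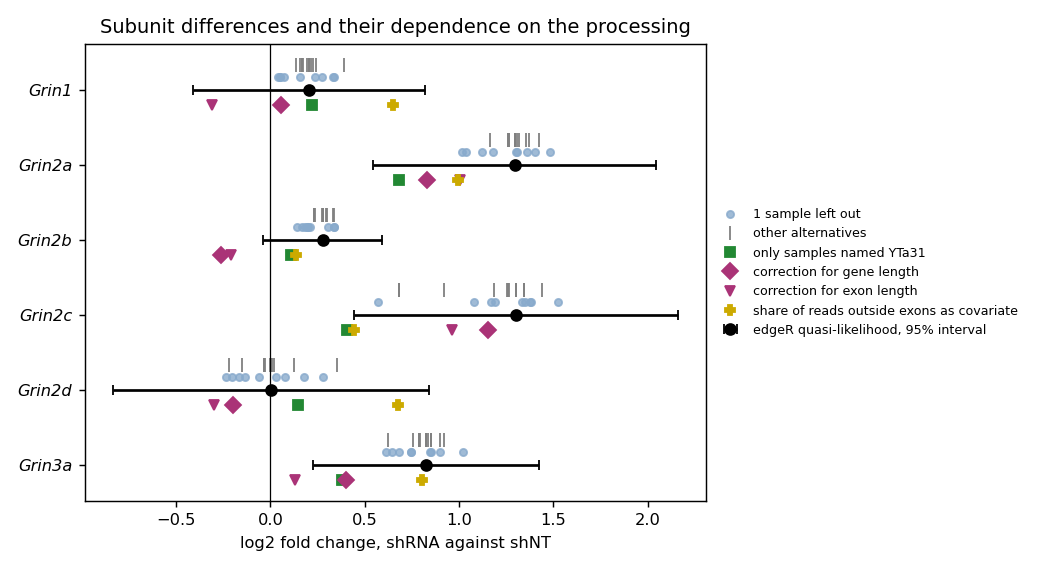
Log2 fold change of shRNA against shNT for the 6 tested subunit genes, with the 95% interval of edgeR's quasi-likelihood fit in black and alternative settings as coloured or grey marks above and below it. The point for Grin2a lies at 1.29 and that for Grin2c at 1.30, where Grin2d lies at 0.00.

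Within a sample, the share of each GluN2 gene in the summed Grin2 reads does not depend on normalization between samples, and the shares show how the GluN2 mix was divided. Each sample held 3239 to 7265 Grin2 reads, and counting error alone gives a share a 95% Wilson half-width of at most 1.68 percentage points. The Grin2a share was 10.9%, 10.7%, 9.71%, 5.00% and 4.29% in shNT 1 to 5 and 17.4%, 14.3%, 12.1% and 18.3% in shRNA 1 to 4. All shRNA samples were above all shNT samples. The mean share was 8.11% ± 3.20 in the shNT and 15.5% ± 2.86 in the shRNA samples, a difference of 7.39 percentage points (exact two-sided permutation p = 0.00794, the smallest that 5 samples against 4 allow, and 0.0317 adjusted over the 4 shares). Per kilobase of exon the mean went from 10.7% to 19.7%. Within YTa31 the groups also did not overlap, with a difference of 4.15 points, although 3 samples against 3 cannot give a p under 0.1. Without shNT 2 and shRNA 4 the difference was 7.10 points (exact permutation p = 0.0571).

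The shares of the other GluN2 genes overlapped between groups. The Grin2b share was 58.5%, 71.5%, 51.0%, 61.2% and 70.6% in shNT 1 to 5 and 59.4%, 53.1%, 56.7% and 58.8% in shRNA 1 to 4. It was the largest share in each sample, more spread in the shNT group, and lower by 5.59 points on average in the shRNA group (exact permutation p = 0.270). The Grin2d share was 25.9%, 12.4%, 35.5%, 28.5% and 21.7% in shNT 1 to 5 and 17.1%, 28.1%, 25.9% and 6.41% in shRNA 1 to 4. Its mean was lower by 5.41 points (exact permutation p = 0.413), or 1.09 points without shRNA 4, and the lowest shares were again those of shRNA 4 and shNT 2. The Grin2c share was 3.49% to 5.44% in the shNT samples, 4.52% to 6.17% in shRNA 1 to 3 and 16.5% in shRNA 4, with means 3.61 points apart (exact permutation p = 0.0794). Since the 4 shares add to the whole, a rise in one lowers the others.

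**Figure D3:**
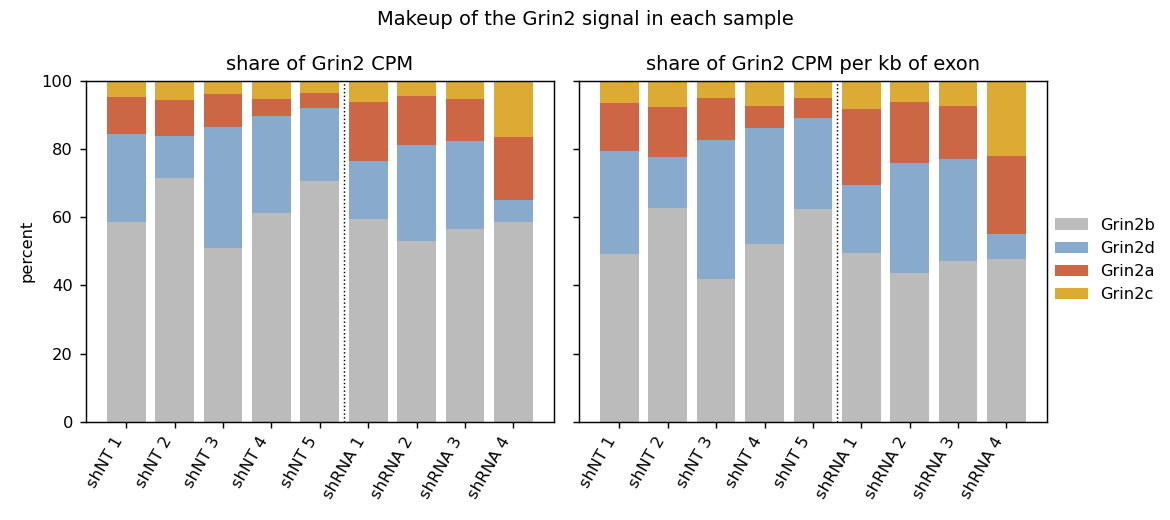
Share of each GluN2 gene in the summed Grin2 CPM, in percent, stacked for each sample, from CPM on the left and from CPM per kb of exon on the right. On the left the Grin2a part takes 4.29% to 10.9% of the bar in the shNT samples and 12.1% to 18.3% in the shRNA samples, and Grin2b takes the largest part in each sample.

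The ratio of reads between pairs of subunits showed the same division in another form. The Grin2a to Grin2b ratio was 0.0609 to 0.190 in the shNT samples and 0.213 to 0.311 in the shRNA samples, with no overlap. The Grin2d to Grin1 ratio was nearly fixed, at 0.202 to 0.232 in all 5 shNT samples and in shRNA 1 to 3, while the level of each gene varied more than 2-fold across those samples. In shRNA 4 it was 0.10. The summed Grin2 level per Grin1 level, both per kilobase of exon, was 0.945 to 2.21 in the shNT and 1.10 to 2.27 in the shRNA samples, with the highest value of each group in shNT 2 and shRNA 4.

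Across the 9 samples the subunit genes fell into unlike patterns, given here as correlations of log2 CPM over samples that share library, depth and group. Grin1 and Grin2d had a correlation of 0.86. Grin2a correlated with Grin3a at 0.89, with Grin2c at 0.77 and with Grin2b at 0.74, but with Grin2d at -0.14. The map of samples by gene and marker list shows which values moved together.

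**Figure D4:**
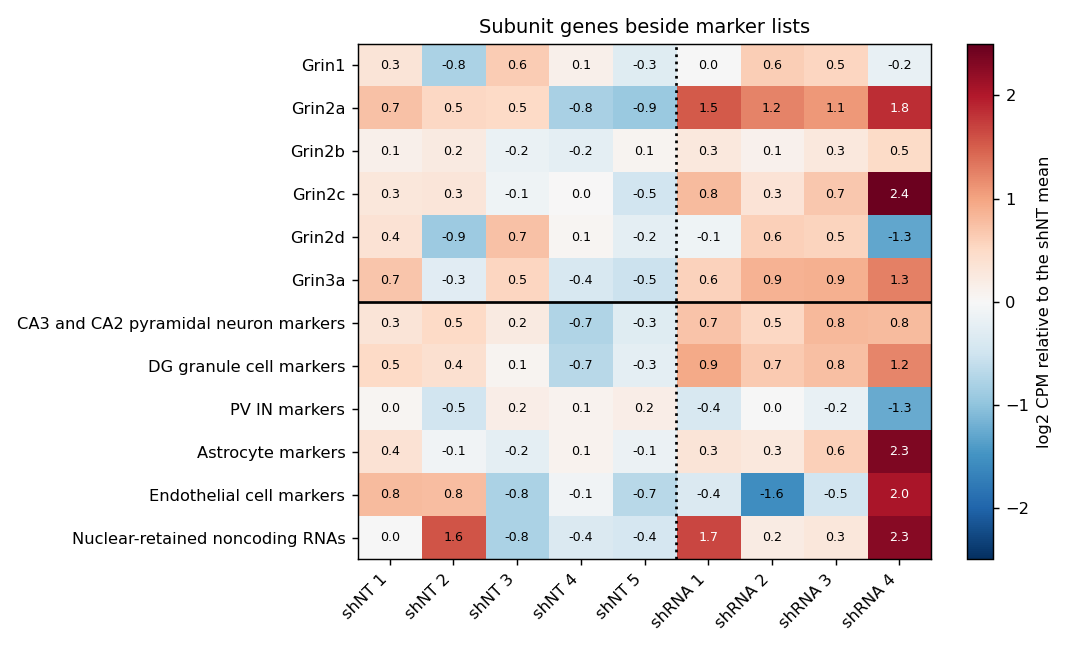
Log2 CPM relative to the shNT mean for 6 subunit genes and the mean of each of 6 marker lists (rows) in each sample (columns), with higher values in red and lower in blue. Grin2a is low in shNT 4 and shNT 5 together with the means of the pyramidal and granule cell markers. Grin2c is high in shRNA 4 together with the means of the astrocyte markers, the endothelial markers and the nuclear-retained RNAs. Grin2d is low in shNT 2 and shRNA 4 together with the mean of the PV IN markers, though Pvalb itself is not low in shNT 2.

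The other genes of the receptor's pathway were taken from a list of 52 partner genes, of which 51 were tested and Dao, the enzyme that breaks down D-serine, was not. Of the 51, 2 were called as higher and 0 as lower. That is 3.92%, where 1.74% of all genes were called as higher and 0.0133% as lower. The fold change was positive in 40, or 78.4%, against 57.9% of all genes tested, with a median of 0.41 against 0.11. Groups did not overlap with the shRNA samples higher for 13 genes, or 25.5%, against 8.97% of all genes tested, and with the shRNA samples lower for 3, Calm2 and Lin7a among them, against 6.68%.

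The 12 postsynaptic scaffold genes tie the receptor to the cytoskeleton and to signalling proteins. Their fold change was positive in 12 (57.9% of all genes tested), and 1 was called as higher (1.74%). Dlg1, which encodes SAP97, was read at 29.7, 21.8, 21.4, 17.6 and 16.3 CPM in shNT 1 to 5 and at 42.9, 34.6, 37.3 and 53.5 CPM in shRNA 1 to 4. The groups did not overlap. It rose by a log2 fold change of 0.98 (SE 0.20, edgeR quasi-likelihood FDR 0.0414). Dlg4, which encodes PSD-95, the scaffold best known for binding GluN2 tails, had a log2 fold change of 0.24 (FDR 0.430). Shank2, the gene of the role with the largest fold change, was at 1.38 and was not called (FDR 0.126), with shNT samples from 28.0 to 185 CPM and shRNA samples from 108 to 383 CPM.

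Among the 12 kinase and phosphatase genes, 9 had a positive fold change (57.9% of all genes tested) and 1 was called as higher (1.74%). Camk2a, the calcium- and calmodulin-dependent kinase that binds GluN2B and is known from excitatory neurons, was at 0.76 (FDR 0.0924), with means of 543 ± 232 and 917 ± 124 CPM. The call of Dlg1 was lost when any of shNT 3, shNT 4, shNT 5, shRNA 1, shRNA 3 or shRNA 4 was left out, in YTa31 alone and under scaling by library size or upper quartile. Without shRNA 4, 0.978% of all genes were called as higher. In each of the other settings just named 0 of all genes were called, so the loss there was not particular to Dlg1. Without shNT 1, 10 partner genes were called as higher, where 6.68% of all genes were called as higher in that setting.

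In the other roles no gene was called, where 1.75% of all genes tested were called. Of the 12 transport and anchoring genes 8 had a positive fold change (57.9% of all genes tested). The largest was that of Actn2, an actin cross-linker that binds the GluN1 tail. Actn2 was read at 221, 29.4, 48.0, 10.4 and 21.5 CPM in shNT 1 to 5 and at 619, 711, 1183 and 124 CPM in shRNA 1 to 4. Its spread within groups was wide, shRNA 4 lay below shNT 1, and its log2 fold change was 3.32 (SE 0.86, edgeR quasi-likelihood FDR 0.0608). Akap9, a kinase anchor that binds GluN1, was at 0.68 (FDR 0.0752).

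Of the 6 tested genes of co-agonist supply, 6 had a positive fold change (57.9% of all genes tested). The largest were those of Gldc, the glycine-cleaving enzyme of glia, and Slc7a10, a transporter of D-serine and glycine. Gldc was at 6.74 to 18.3 CPM in the shNT samples, 22.1 to 28.0 CPM in shRNA 1 to 3 and 106 CPM in shRNA 4, with a log2 fold change of 1.98 (FDR 0.0547). Slc7a10 was at 6.24 to 10.3 CPM in the shNT samples, 13.9 to 16.2 CPM in shRNA 1 to 3 and 60.9 CPM in shRNA 4, with a log2 fold change of 1.57 (FDR 0.0630). Both were highest in shRNA 4, as were Grin2c and the astrocyte markers.

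Of the 9 genes of calcium-dependent signalling, 5 had a positive fold change (57.9% of all genes tested). Rasgrf1, an exchange factor for Ras that binds GluN2B, was at 1.04 (FDR 0.0698), with means of 104 ± 50.3 and 215 ± 52.6 CPM. Calm2, which encodes calmodulin, was at -0.51 (FDR 0.103), and each of its shRNA samples, at 1885 to 2186 CPM, was below each shNT sample, at 2211 to 3740 CPM.

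**Figure D5:**
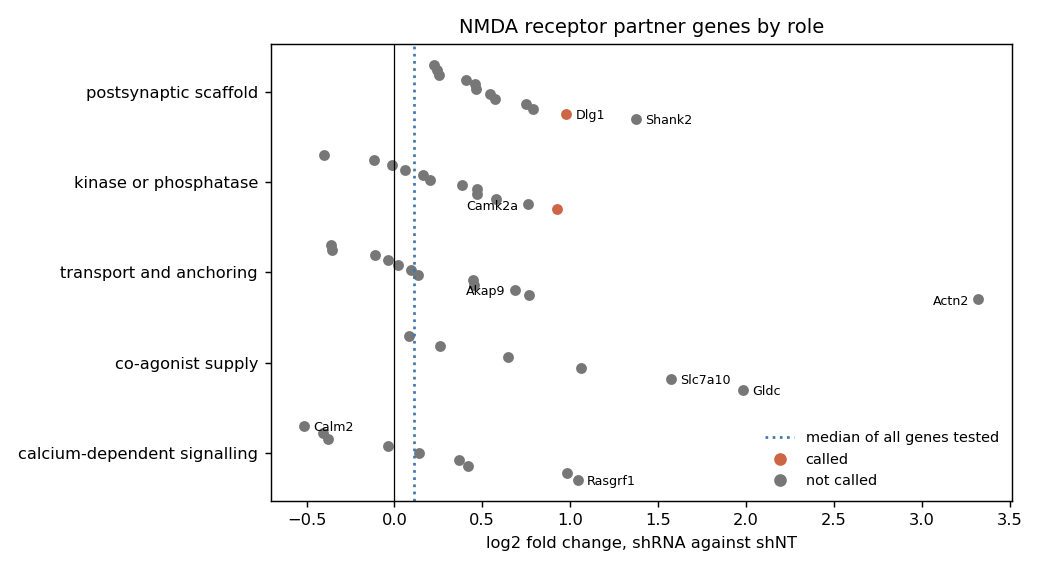
Log2 fold change of shRNA against shNT for the 51 tested partner genes, grouped by role, with the 2 called genes (Dlg1 among them) in orange and the others in grey. The dotted line marks the median of all genes tested, 0.11, and 40 of the 51 points lie above 0.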

How the data were processed

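RNA was sequenced from HA-Rpl22 pulldowns as 50-base reads. The authors aligned reads to mm9 with STAR, counted them per gene with HTSeq 0.6.0 without strand, and deposited raw counts for each sample. Totals were 18281719 to 34578837 gene counts, and intervals on shares cover counting error only. Gene names, positions and lengths were taken from the GENCODE annotation of NCBIM37 (37205 of 37620 identifiers matched). Genes reaching 1 CPM in 1 or more samples (15069, with 22551 removed) were normalized by TMM and tested with edgeR 4.0.16 by quasi-likelihood, with condition as the only term and Benjamini-Hochberg adjustment; the methods name edgeR but no particular test. Calls needed an FDR under 0.05 and 1.5-fold. Shares were compared by exact permutation of the sample labels. Alternatives were other edgeR tests, DESeq2 1.42.0, limma 3.58.1 voom, other normalizations and filters, blocks, covariates, length corrections and left-out samples. Leaving out shNT 2 with shRNA 4, shares per longest transcript and the prefix interaction were chosen after seeing the data. Subunits were aligned with mafft 7.526. The members and lists were chosen with earlier results of these data known. Named genes were the 7 subunits, called partner genes, in each role the 2 largest changes at a mean of 10 CPM or more, and for each subunit the 3 most correlated genes; Lin7a, Dlg4, Dao, Slc17a7, Grik4, Dock10, Pdgfra, Olig2 and Gpr17 were added after their values were seen, and some items that the rule names are not reported here. Among the marker lists, fold changes were positive in 5 of 9 markers of other interneurons, 8 of 8 of oligodendrocytes and 5 of 6 of their precursors. They were positive in 5 of 7 of microglia, 5 of 7 of endothelial cells and 6 of 6 nuclear-retained RNAs. Of all genes tested, 57.9% were positive. Any 2 replicates differed beyond sampling noise (chi-square per gene at least 19.7). Samples are pools of mice, and p-values measure the spread between pools. The 4 equal replicate numbers did not pair the samples.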

Additional observations from a re-analysis of the deposited data

Results flagged for a closer look

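Grin2c in shRNA 4 stood apart from the other shRNA samples by Dixon's criterion, both in level, at 46.7 CPM where the others were at 10.8 to 14.9 CPM, and in its share of Grin2 reads, at 16.5% where the others were at 4.52% to 6.17%. Of 20 groups of values examined in this way, about 1 would stand apart by chance.

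The shRNA effect differed between samples named YTa32 and YTa31 for Grin2c, by 2.23 on the log2 scale (SE 0.34, edgeR quasi-likelihood FDR 0.0105), and for Grin2a, by 2.00 (SE 0.27, FDR 0.0105). This test passed an FDR under 0.05 in 3267 of 15069 genes, or 21.7%. The YTa32 set holds 2 shNT samples and 1 shRNA sample, shRNA 4, so in the shRNA group the set and that sample cannot be told apart. For Grin2a the shNT samples also differed by set, with means of 21.6 CPM in YTa31 and 7.85 CPM in YTa32.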

How the results depend on the processing

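The number of subunit genes called, 0 by edgeR's quasi-likelihood test, was 3 by the likelihood ratio test, the exact test, DESeq2 and limma voom, 1 with no filter on low counts (Grin2a, FDR 0.0462) and 0 to 2 with 1 sample left out (2 without shNT 1, Grin2a and Grin3a). The 2 partner genes called became 12 by the likelihood ratio and exact tests, 11 by DESeq2, 22 by voom, 5 with no filter, 5 without shNT 2 and shRNA 4, and 0 with library sizes alone, upper-quartile scaling, YTa31 samples alone, the outside-exon covariate or either length correction. With 1 sample left out they were 0 to 10. Over all genes, the 262 called higher and 2 lower ranged from 0 to 2301 and 0 to 844. The shares of all genes called as higher were 11.2%, 11%, 10.1% and 15.3% by the likelihood ratio test, the exact test, DESeq2 and voom. They were 2.08% with no filter, 6.68% without shNT 1 and 4.75% without shNT 2 and shRNA 4. With library sizes alone, upper-quartile scaling, YTa31 samples alone, the outside-exon covariate or either length correction, 0 of all genes were called.

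Direction turned for Grin1 with exon length (-0.31) and for Grin2b with gene length (-0.26) and exon length (-0.21). Grin2d, at 0.00, was -0.033 by DESeq2 and with DESeq2 size factors, -0.030 with no filter, -0.0020 with upper-quartile scaling, -0.22 with the name prefix as a block, -0.20 with gene length, -0.30 with exon length and -0.24 to 0.28 with 1 sample left out. Grin2a, Grin2c and Grin3a stayed above 0 under all 26 alternatives run but shrank to 0.68, 0.41 and 0.13 at the lowest. The Grin2a share difference, 7.39 points, was 4.15 in YTa31 (exact permutation p = 0.1), 7.10 without shNT 2 and shRNA 4 (p = 0.0571) and 6.44 to 8.53 with 1 sample left out (exact permutation p from 0.0179 to 0.0357).

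Same-numbered samples did not deviate together (correlations -0.27, -0.64, 0.49 and -0.18). With the replicate number as a block, 1 partner gene (Actn2) and 29 of all genes were called, Grin2d was at -0.15, and the Grin2a share difference was 6.44 points (exact sign-flip permutation p = 0.125, the smallest that 4 pairs allow).

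Depth limits only Grin3b, at 0 to 6 reads. The other subunit genes are limited by the spread between pools, by shRNA 4 as the one shRNA sample of its prefix, and by reads outside exons, which differ between samples.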

Other observations

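For each of the 6 tested subunit genes, the 3 genes with the most similar pattern over the 9 samples were found among 9495 genes with a mean of at least 10 CPM, by Pearson correlation of log2 CPM, given as a description over samples that share library, depth and group. Grin1 was closest to Smarcal1, Sez6 and Zswim4 (0.996, 0.996 and 0.995). Grin2d was closest to Parva, Nsun2 and Bace1 (0.997, 0.997 and 0.995). Grin2a was closest to Mgat4a, Scn3b and Phc1 (0.987, 0.983 and 0.983). Grin2b was closest to Rsf1, Taok1 and Pdcd11 (0.987, 0.986 and 0.986). Grin2c was closest to Cbs, Akap8 and Rhbdf1 (0.994, 0.990 and 0.989). Grin3a was closest to Fbf1 (0.992), and Kdm3a was the third, at 0.987.

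At the protein level, the GluN2 subunits were 43.3% to 56.2% identical to one another over aligned residues of the longest reference translation, Grin3a and Grin3b products were 55.4% identical, and the Grin1 product was 25.4% to 26.6% identical to the others.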
